A study of Rattus norvegicus with 6 samples.

Results

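The genes described are 10 genes of the circadian clock, measured in spinal cord libraries of rats with neuropathic pain (NP) and of sham rats. They were chosen by name, *Nr1d1*, *Nr1d2*, *Dbp*, *Tef*, *Per1*, *Per2*, *Per3*, *Arntl*, *Npas2* and *Cry1*, and each symbol was found once among the 22050 genes of the deposited table. The choice was made with the comparison of the groups already known, so the differences between the groups in these 10 genes are described here without a test. Spared nerve injury (SNI), a surgical lesion of the sciatic nerve that leaves its sural branch intact, was used to make the SNI-NP rats, and sham surgery was used for the controls. RNA-seq was done on 3 SNI-NP and 3 sham samples, each 1 library, and a rat below means 1 such library. All animals were male Sprague–Dawley rats of 8 to 10 weeks, kept under equal periods of light and dark. The hour of tissue collection, the time after surgery and the spinal segment used for RNA-seq are not given in the sources used here.

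The circadian clock is a transcriptional loop that runs in nearly every cell. ARNTL (BMAL1) pairs with CLOCK or NPAS2 and binds E-boxes, which drive the Period, Cryptochrome, REV-ERB (*Nr1d1* and *Nr1d2*) and *Dbp* genes. PER and CRY proteins then inhibit the ARNTL complex, REV-ERB proteins repress *Arntl*, *Npas2* and *Cry1* through REV-ERB/ROR elements, and the PAR bZIP factors DBP and TEF act on D-boxes. In peripheral tissues of rodents the *Nr1d1* and *Dbp* transcripts peak ahead of the Period transcripts, and *Arntl* and *Npas2* peak in the opposite phase. Below, *Nr1d1*, *Nr1d2*, *Dbp*, *Tef* and the 3 Period genes are called the repressor and output genes, and *Arntl*, *Npas2* and *Cry1* the opposite-phase genes.

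Sequences that match these control elements occur in the promoters of some of the genes. RefSeq promoter entries of the rat build GRCr8 were found for 9 of the 10 genes (*Arntl* under the symbol *Bmal1*), and none was found for *Cry1*. The 250 bases ahead of the start site were searched on both strands for the E-box CACGTG and its variant form CACGTT. The D-box was searched as TTATGTAA and also as its palindrome TTACGTAA. The core of the REV-ERB/ROR element was searched as TAGGTCA, with a variant that reads TGGGTCA and another that reads TAGGTTA. The cAMP response element was searched as TGACGTCA. Each window below runs 5′ to 3′ on the strand of its gene, and capitals mark the matches. The *Arntl* window, shown because the gene is the classic target of REV-ERB proteins, is chr1:176766078-176766327 on the plus strand. The *Nr1d1* window lies ahead of 1 of its 2 annotated starts, at chr10:84229455-84229704 on the minus strand. The *Tef* window is chr7:115206577-115206826 on the plus strand, and the *Per2* window, which holds both a D-box and an E-box variant, is chr9:99496994-99497243 on the minus strand.
Arntl: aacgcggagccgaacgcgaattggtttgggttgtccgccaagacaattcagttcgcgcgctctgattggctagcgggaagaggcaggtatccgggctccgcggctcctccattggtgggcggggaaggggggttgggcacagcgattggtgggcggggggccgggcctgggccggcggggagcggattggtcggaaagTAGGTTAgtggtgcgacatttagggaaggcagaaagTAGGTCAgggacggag
Nr1d1: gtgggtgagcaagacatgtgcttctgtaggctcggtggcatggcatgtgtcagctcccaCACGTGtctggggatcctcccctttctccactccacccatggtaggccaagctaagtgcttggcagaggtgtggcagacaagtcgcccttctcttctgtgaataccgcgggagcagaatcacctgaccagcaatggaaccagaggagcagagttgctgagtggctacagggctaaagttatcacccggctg
Tef: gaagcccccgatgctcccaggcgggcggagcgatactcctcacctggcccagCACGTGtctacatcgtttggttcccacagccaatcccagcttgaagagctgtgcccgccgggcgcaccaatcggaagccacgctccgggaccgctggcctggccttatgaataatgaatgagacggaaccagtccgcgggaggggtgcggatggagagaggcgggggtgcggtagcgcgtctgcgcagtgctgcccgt
Per2: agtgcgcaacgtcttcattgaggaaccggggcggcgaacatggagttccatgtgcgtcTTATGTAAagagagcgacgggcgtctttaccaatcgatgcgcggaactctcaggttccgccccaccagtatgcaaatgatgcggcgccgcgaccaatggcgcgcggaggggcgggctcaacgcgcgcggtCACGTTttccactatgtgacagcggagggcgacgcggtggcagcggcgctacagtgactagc

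The *Arntl* window held 2 REV-ERB/ROR element cores, TAGGTTA at position -52 and TAGGTCA at position -16 from the start site. Of all 33469 promoter windows in the table, 1.42% held TAGGTTA and 2.26% held TAGGTCA. *Nr1d1* and *Tef* each held the E-box CACGTG, which occurred in 5.59% of all windows, at positions -191 and -198. The other *Nr1d1* start held the variant CACGTT on its opposite strand. The D-box TTATGTAA of *Per2* occurred in 0.828% of all windows and the E-box variant CACGTT in 4.07%. No match was found in the windows of *Nr1d2*, *Dbp*, *Per1*, *Per3* and *Npas2*, which says only that these letters are not in these 250 bases. A match is a description of the sequence, and binding was not measured in these libraries.

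The libraries held between 16670760 and 18151156 estimated counts each. Expression is given as CPM, which relates a count to its library total and is adjusted between libraries with TMM factors, and as FPKM, which also divides by gene length. The tissue label was checked against marker genes, and in every library peripheral nerve transcripts lay beside those of the cord. The 6 Schwann cell genes summed to between 76179 and 92289.7 CPM in sham rats and between 88324 and 117187 in SNI-NP rats, above the 6 oligodendrocyte genes at between 30040.1 and 40884 CPM over all libraries. The 8 genes of dorsal root ganglion neurons summed to 230.5 CPM in SNI-NP replicate 1 and to between 714 and 2105 CPM in the other libraries. The 4 erythroid genes found summed to between 789.7 and 1843 CPM in sham rats and between 1697 and 3983 in SNI-NP rats, and all 4 were higher in SNI-NP rats at an unadjusted p-value under 0.05 in edgeR's quasi-likelihood test. Of 8 granulocyte precursor genes 3 were higher at that threshold (summed level 34.9 to 120.4 CPM in sham and 91.4 to 183.5 in SNI-NP rats), as were 3 of 4 tested B cell genes (4.44 to 7.97 and 11.4 to 14.4 CPM). Of 8 neuronal genes, summing to between 882 and 1220 CPM in sham and between 641 and 1193 in SNI-NP rats, 2 were lower. The counts at this threshold were 1 of 6 Schwann cell genes, 2 of 4 ependymal genes and 1 of 5 meningeal genes higher, 1 of 6 astrocyte genes lower, and none in the lists of oligodendrocytes, motor neurons, microglia, endothelium, ganglion neurons and muscle. Over all 14426 genes tested 4.91% were higher and 5.94% lower at this threshold. After adjustment 0 genes passed in edgeR, and 1 erythroid, 1 B cell and 1 neuronal gene passed in DESeq2, as did 1.46% of all genes. The marker lists were chosen with earlier results of these data known, so these counts are descriptive. The 4 muscle genes found spread widely within groups. They summed to 8.88, 60.6 and 25.0 CPM in sham replicates 1 to 3 and to 120.1, 8.33 and 309.0 CPM in SNI-NP replicates 1 to 3. Whole tissue was sequenced, so fewer cells of a type and less RNA per cell cannot be told apart, and the part of these cell types in the clock gene levels was not tested.

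The levels of the clock genes differed in both directions. In SNI-NP rats *Nr1d1* was 4.76-fold, *Dbp* 2.26-fold, *Nr1d2* 1.63-fold and *Per3* 1.37-fold the sham level, whereas *Cry1*, *Arntl* and *Npas2* were 1.75-fold, 1.58-fold and 1.46-fold higher in sham rats. *Tef*, *Per1* and *Per2* had overlapping groups and fitted log2 fold changes of 0.23, 0.14 and 0.00. The SNI-NP levels were all above the sham levels for 4 of the 7 repressor and output genes, and all below for 2 of the 3 opposite-phase genes, so that 6 of the 10 had groups apart. Over all 14426 genes tested the corresponding shares were 10.4% above, 8.15% below and 18.5% in either direction. The fitted log2 value was positive in 7 of the 10, as in 50.9% of all genes, and at least 1 in 2 of them, as in 1.25%. Since these genes were chosen with the comparison in view, nothing is read from the difference.

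**Figure D1:**
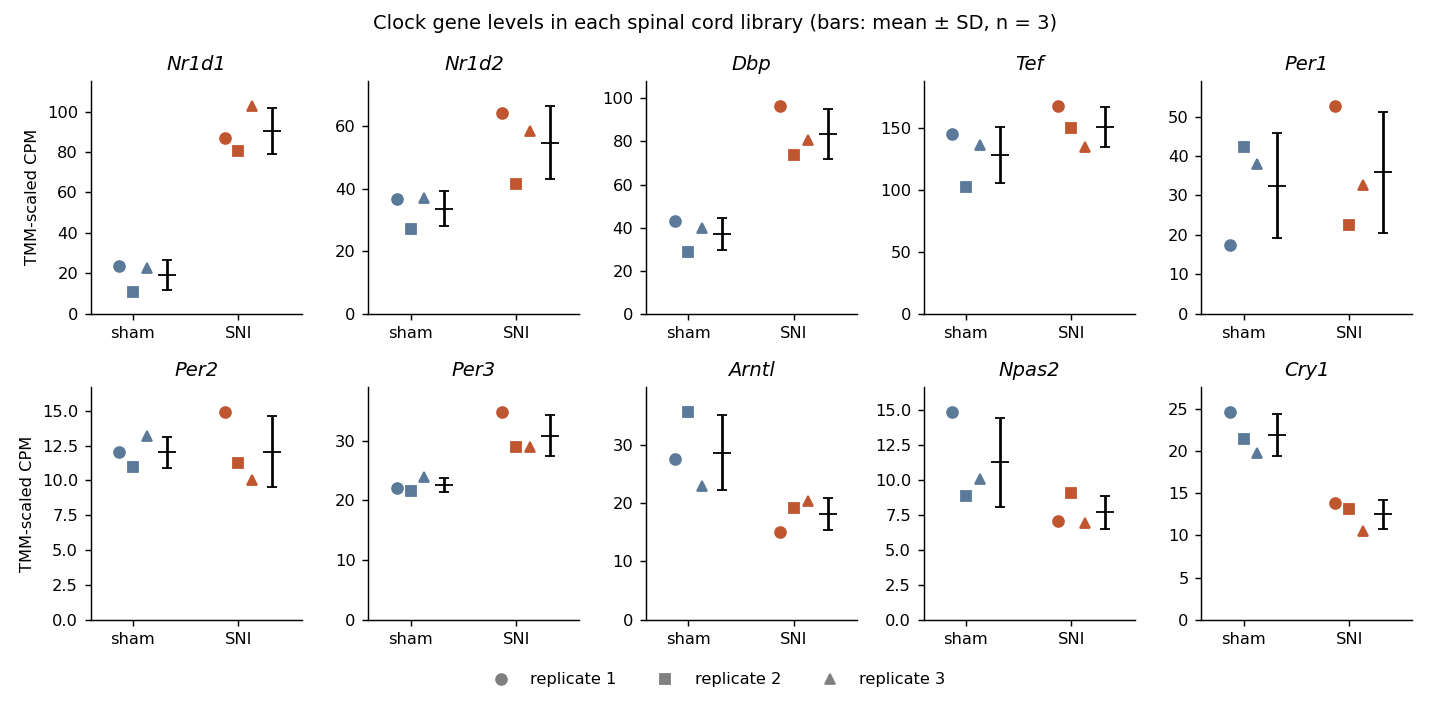
Level of each of the 10 clock genes, in CPM scaled with TMM factors on a linear axis from 0, in 3 sham libraries (blue) and 3 SNI libraries (orange), with symbols for the replicate and black bars for the mean ± SD. *Nr1d1* sits between 80.7 and 102.8 CPM in the SNI libraries and at or below 23.6 in the sham libraries, whereas the groups overlap for *Tef*, *Per1*, *Per2* and *Npas2*.

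*Nr1d1* (ENSRNOG00000009329) encodes REV-ERBα, the nuclear receptor that represses *Arntl*. It was at 23.6, 10.5 and 22.8 CPM in sham replicates 1 to 3 and at 87.0, 80.7 and 102.8 CPM in SNI-NP replicates 1 to 3. The groups were far apart, the lowest SNI-NP rat being above every sham rat, and sham replicate 2 was lower than the other sham rats. The mean was 19.0 ± 7.36 CPM in sham and 90.2 ± 11.4 in SNI-NP rats (mean ± SD of 3 libraries each), and the fitted log2 fold change was 2.25 with a standard error of 0.30. This value was higher than that of 99.8% of all genes tested. *Nr1d1* was the only 1 of the 10 genes whose estimated counts were not whole. Its interval overlaps that of *Thra*, a thyroid hormone receptor gene, at one end in RefSeq (GRCr8), and the pair is known to lie on opposite strands. The *Thra* counts were not whole either, and the sums of both genes, 4185, 3781 and 4378 in sham and 5718, 5752 and 5534 in SNI-NP rats, were whole in all 6 libraries. The use of strand in the counting is not given in the sources used here, so the *Nr1d1* level is uncertain by the reads it shares with *Thra*. *Thra* was at 220.7 ± 15.9 CPM in sham and 232.8 ± 12.98 in SNI-NP rats (mean ± SD of 3 libraries each), and its log2 fold change was 0.08 (SE 0.10, edgeR adjusted p = 0.797). The group means therefore differed by 71.2 CPM for *Nr1d1* and by 12.1 CPM, in the same direction, for *Thra*.

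*Nr1d2* (ENSRNOG00000046912) encodes REV-ERBβ, the partner repressor. Its levels were 36.7, 27.1 and 37.0 CPM in sham rats and 64.2, 41.6 and 58.5 CPM in SNI-NP rats. The groups did not overlap, but SNI-NP replicate 2 lay closer to the highest sham rat than to the other SNI-NP rats. The log2 fold change was 0.71 (SE 0.20). The balance of the REV-ERB pair also differed, the *Nr1d1* to *Nr1d2* ratio of FPKM being 1.08 ± 0.28 in sham and 3.32 ± 0.59 in SNI-NP rats (mean ± SD of 3 libraries each).

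*Dbp* (ENSRNOG00000021027) encodes a PAR bZIP activator and is a direct output of the loop. It was at 43.0, 28.5 and 39.6 CPM in sham rats and at 96.5, 73.9 and 80.7 CPM in SNI-NP rats. No SNI-NP rat came near the sham range, and the log2 fold change was 1.18 (SE 0.18). *Tef* (ENSRNOG00000019383), the related PAR bZIP gene, had much smaller differences, with 145.5, 102.6 and 136.6 CPM in sham rats and 167.8, 149.7 and 134.9 CPM in SNI-NP rats. Its groups overlapped, since SNI-NP replicate 3 lay below 2 sham rats, and the log2 fold change was 0.23 (SE 0.16). Within a library the *Dbp* to *Tef* ratio of FPKM was nearly constant in sham rats, at 0.71 ± 0.02, and was 1.38 ± 0.14 in SNI-NP rats (mean ± SD of 3 libraries each).

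The Period genes encode the repressors of the ARNTL complex, and the 3 genes differed from each other. *Per3* (ENSRNOG00000018413) was at 22.2, 21.6 and 23.9 CPM in sham rats and at 34.8, 28.9 and 28.9 CPM in SNI-NP rats. Its groups did not overlap, with a log2 fold change of 0.45 (SE 0.12). *Per2* (ENSRNOG00000020254) was at 12.01, 10.9 and 13.2 CPM in sham rats and at 14.9, 11.2 and 10.03 CPM in SNI-NP rats, so the SNI-NP range enclosed the sham range. Its log2 fold change was 0.00 (SE 0.19), and its sign changed with the scaling. *Per1* (ENSRNOG00000007387), which also responds to glucocorticoid and cAMP signals, was at 17.3, 42.2 and 37.9 CPM in sham rats and at 52.7, 22.5 and 32.5 CPM in SNI-NP rats. Both groups spread widely and overlapped, and the log2 fold change was 0.14 with a standard error of 0.40.

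Among the opposite-phase genes, *Arntl* (ENSRNOG00000014448) encodes BMAL1, the activator of the loop. It was at 27.5, 35.6 and 22.9 CPM in sham rats and at 15.0, 19.2 and 20.3 CPM in SNI-NP rats. All 3 SNI-NP rats lay below the sham rats, by a narrow gap between sham replicate 3 and SNI-NP replicate 3, and the log2 fold change was -0.66 (SE 0.20). *Cry1* (ENSRNOG00000006622) encodes a cryptochrome that represses the ARNTL complex. Its levels were 24.6, 21.4 and 19.7 CPM in sham rats and 13.9, 13.1 and 10.5 CPM in SNI-NP rats, and its groups were well apart, with a log2 fold change of -0.81 (SE 0.16). *Npas2* (ENSRNOG00000013408), a partner of ARNTL in place of CLOCK, was at 14.8, 8.84 and 10.1 CPM in sham rats and at 7.07, 9.05 and 6.90 CPM in SNI-NP rats. SNI-NP replicate 2 lay above sham replicate 2, and the log2 fold change was -0.55 (SE 0.24).

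Per unit of gene length, *Tef* and *Dbp* were the most abundant of the 10 genes in sham rats, at 31.3 ± 4.75 and 22.4 ± 3.94 FPKM (SD, n = 3). *Arntl* (9.81 ± 2.40), *Nr1d1* (8.19 ± 3.05), *Per1* (8.17 ± 3.45), *Cry1* (7.61 ± 0.82) and *Nr1d2* (7.37 ± 1.10 FPKM) followed, and these 5 genes did not differ beyond their spread. *Per3* (4.91 ± 0.44), *Npas2* (2.66 ± 0.71) and *Per2* (2.11 ± 0.16 FPKM) were lowest. In SNI-NP rats *Dbp* was at 49.0 ± 5.32, *Nr1d1* at 38.0 ± 4.81 and *Tef* at 35.6 ± 3.30 FPKM (SD, n = 3), the last pair within their spread. *Nr1d2* came next at 11.7 ± 2.27, then *Per1* at 8.67 ± 3.49, *Per3* at 6.28 ± 0.71 and *Arntl* at 6.03 ± 1.04 FPKM, the last 3 within their spread. *Cry1* was at 4.21 ± 0.55, *Per2* at 2.05 ± 0.38 and *Npas2* at 1.78 ± 0.31 FPKM. The *Nr1d1* to *Arntl* ratio of FPKM had values of 1.09, 0.375 and 1.26 among sham rats and of 7.37, 5.36 and 6.45 among SNI-NP rats, and only in sham replicate 2 was *Nr1d1* below *Arntl*.

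Taking both groups of genes within each library cancels nearly all of any scaling factor between libraries. The mean log2 CPM of the 7 repressor and output genes minus that of the 3 opposite-phase genes was 0.50, 0.46 and 1.04 in sham rats and 2.36, 1.70 and 2.08 in SNI-NP rats. All SNI-NP libraries were above all sham libraries, with sham replicate 3 the nearest to them. The means were 0.67 ± 0.32 and 2.05 ± 0.33 (mean ± SD of 3 libraries each), a difference of 1.38 on the log2 scale. Of this difference, 0.72 came from the repressor and output genes, and the change in the opposite-phase genes was -0.66. Without SNI-NP replicate 1, the library with the lowest level of ganglion neuron genes and the highest of erythroid genes, the difference was 1.22. As the genes were chosen for such a pattern, these values describe it and carry no test.

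**Figure D2:**
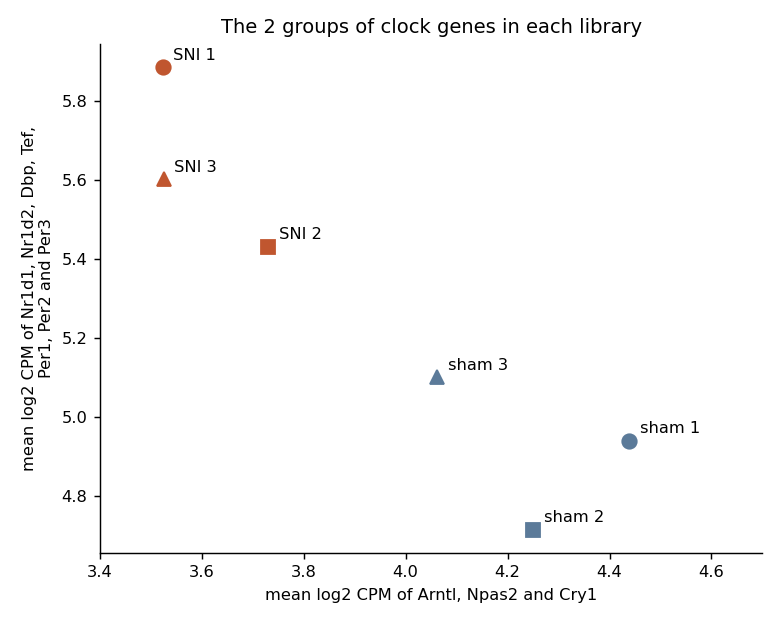
Mean log2 CPM of the 7 repressor and output genes (vertical axis) against that of the 3 opposite-phase genes (horizontal axis), with 1 point per library, sham in blue and SNI in orange. The SNI libraries lie at 5.43 to 5.89 on the vertical and 3.52 to 3.73 on the horizontal axis, and the sham libraries at 4.71 to 5.10 and 4.06 to 4.44.

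Deviations of each rat from the mean of its own group do not use the difference between the groups. Within the sham group *Nr1d1*, *Nr1d2*, *Dbp* and *Tef* were all lowest in replicate 2, by 0.76, 0.29, 0.35 and 0.30 below the group mean on the log2 scale. *Per2* and *Per3* were also lowest there, by 0.13 and 0.06. *Arntl* was highest there, by 0.33, and *Cry1* was near its mean, at -0.03. The same library had the lowest summed level of astrocyte genes, 748.6 CPM against 1829 and 1343 in the other sham libraries. Motor neuron genes summed there to 25.1 CPM against 70.3 and 58.2. Neuronal, oligodendrocyte and erythroid genes were also lowest there among sham libraries. Microglial, meningeal, ependymal and muscle genes were highest there among sham libraries. The part of these cell types in the deviations was not tested. *Npas2* did not follow *Arntl*, as it was 0.31 below its mean in the same rat. Among SNI-NP rats *Nr1d1*, *Nr1d2*, *Dbp* and *Per1* were lowest in replicate 2, *Tef* and *Per2* in replicate 3, and *Arntl* in replicate 1. *Per3* was nearly level in replicates 2 and 3, at -0.09 in both. *Per1* went its own way in the sham group, where it was lowest in replicate 1, by 0.80. The pooled SD within groups was 0.66 for *Per1* on the log2 scale, above that of 91.6% of all genes tested, and 0.48 for *Nr1d1*, above 83.1%. *Per3* was the steadiest, with an SD of 0.12. The median over the 10 genes was 0.27, and over all genes tested it was 0.22.

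**Figure D3:**
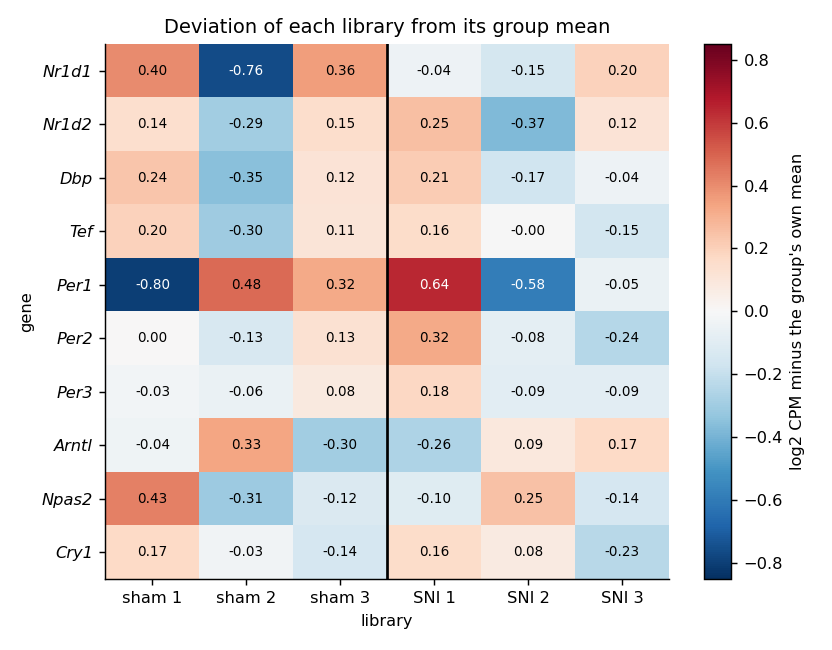
Log2 CPM of each clock gene (rows) in each library (columns) minus the mean of the library's own group, with red above and blue below the mean. Sham replicate 2 is blue for *Nr1d1* (-0.76), *Nr1d2*, *Dbp*, *Tef* and *Npas2*, paler for *Per2*, *Per3* and *Cry1*, and red for *Arntl* (0.33) and *Per1* (0.48). *Per1* has the strongest colour in 3 of the 6 libraries.

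Other genes of the clock loop were taken from a list that, like all gene lists used here, was chosen with earlier results of these data known. Its p-values are therefore descriptive, and its 11 genes do not include the 10. Of the 9 that could be tested, *Ciart* was higher and *Nfil3* lower in SNI-NP rats at an unadjusted p-value under 0.05, and none of the 9 passed after adjustment in edgeR, whereas *Nfil3* did in DESeq2. Over all genes tested 4.91% were higher and 5.94% lower at this threshold, and 0 passed an adjusted p-value of 0.05 by edgeR, whereas 211 did by DESeq2. *Ciart*, which encodes CHRONO, an E-box-driven repressor of the ARNTL complex, was at 3.30, 2.37 and 2.15 CPM in sham rats and at 6.27, 3.94 and 5.68 CPM in SNI-NP rats. All SNI-NP rats lay above the sham rats, with a log2 fold change of 1.02 (SE 0.28). By edgeR's quasi-likelihood test its p was 0.00769, and its adjusted p = 0.373. *Nfil3*, which encodes E4BP4, the D-box repressor that competes with DBP and TEF and is itself a REV-ERB target, was at 10.7, 9.75 and 13.04 CPM in sham rats and at 6.67, 6.28 and 6.84 CPM in SNI-NP rats. Its groups did not overlap either, with a log2 fold change of -0.76 (SE 0.17). The p of *Nfil3* was 0.00291 and its adjusted p = 0.329 by edgeR, with an adjusted p = 0.0267 by DESeq2. The *Dbp* to *Nfil3* ratio of FPKM, activator to repressor on D-boxes, was 3.88 ± 0.65 in sham and 14.8 ± 1.74 in SNI-NP rats (mean ± SD of 3 libraries each).

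The remaining loop genes did not pass the unadjusted threshold of edgeR's quasi-likelihood test. *Clock*, the partner of ARNTL, was at 50.9, 53.5 and 39.2 CPM in sham rats and at 44.3, 19.3 and 33.0 CPM in SNI-NP rats, with overlapping groups and a log2 fold change of -0.57 (SE 0.29, adjusted p = 0.496). *Cry2*, the other cryptochrome gene, was at 92.2 ± 9.59 CPM in sham and 87.1 ± 4.52 in SNI-NP rats (mean ± SD of 3 libraries each), a log2 fold change of -0.08 (SE 0.11). *Bhlhe40* and *Bhlhe41*, which encode the E-box repressors DEC1 and DEC2, differed by 0.39 ± 0.20 and 0.16 ± 0.20 on the log2 scale (± SE). *Hlf*, the third PAR bZIP gene, was at 3.79 ± 0.55 and 3.75 ± 0.62 CPM (mean ± SD of 3 libraries each). *Rora* and *Rorb*, which encode activators at REV-ERB/ROR elements, were low, at 1.04 ± 0.48 and 1.70 ± 0.85 CPM in sham rats and 0.591 ± 0.244 and 1.37 ± 0.56 in SNI-NP rats (mean ± SD of 3 libraries each). *Arntl2* was below the filter on low counts, under 1 CPM in every library.

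**Figure D4:**
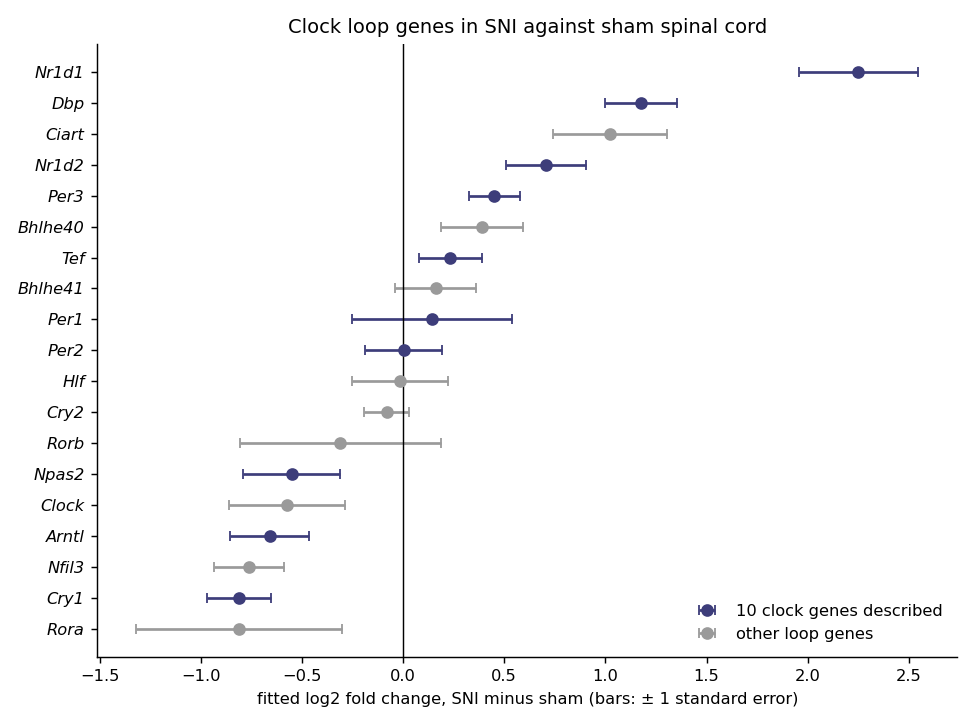
Fitted log2 fold change of SNI against sham (horizontal axis, bars ± 1 standard error from edgeR) for the 10 clock genes described (dark) and the 9 other loop genes tested (grey), in order of size. *Nr1d1* (2.25), *Dbp* (1.18) and *Ciart* (1.02) are at the top, and *Arntl* (-0.66), *Nfil3* (-0.76), *Cry1* (-0.81) and *Rora* (-0.81, with a wide bar) at the bottom.

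Genes that modify clock proteins, and genes under clock control in other tissues, were counted as well. Of 16 tested regulators of clock proteins, *Timeless* was higher and *Gsk3b*, a kinase of several clock proteins, was lower at the unadjusted threshold, with log2 fold changes of 0.60 and -0.31 (standard errors 0.24 and 0.10, edgeR adjusted p = 0.445 and 0.436). *Csnk1d* and *Csnk1e*, the casein kinase genes whose products mark PER proteins for degradation, had log2 fold changes of 0.07 and 0.21 and did not pass. Of 9 tested output genes only *Por*, which encodes cytochrome P450 reductase, passed, with a log2 fold change of 0.34 (SE 0.13, edgeR adjusted p = 0.442). In all, 3 of the 34 other clock-related genes tested were higher and 2 were lower by edgeR at the unadjusted threshold, which 10.8% of all genes passed. Their median log2 fold change was -0.05 against 0.01 over all genes tested. *Timeless* and *Por* each passed in 2 of the 6 fits that left out 1 library, whereas *Ciart*, *Nfil3* and *Gsk3b* passed in all 6.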

How the data were processed

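Spinal cord libraries of 3 sham rats and 3 SNI-NP rats were used, grouped by the sample labels. The authors mapped reads to the genome they call Rat6 and kept unique sequences, and the submitters' processing notes name FastQC, STAR and HTSeq. As some deposited counts, those of *Nr1d1* among them, are not whole, the tool and setting behind them are unclear. The annotation release and the use of strand are not given in the sources used here. The deposited values are estimated counts per gene and FPKM for 22050 genes. Estimated counts were rounded, filterByExpr kept 14426 genes, and the groups were compared by edgeR 4.0.16 (R 4.3.3) with TMM scaling, the quasi-likelihood test and Benjamini-Hochberg adjustment over all genes tested. Log2 CPM used a prior count of 2. The common biological coefficient of variation was 0.223. A count of 0 allowed up to 0.165 to 0.18 CPM, for counting error only. Nothing says more of the replicates than that they are separate samples. The p-values therefore set the difference between groups against the spread between these samples.

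The 10 genes and all gene lists were chosen with earlier results of these data known, and the promoter motifs with the sequences known. Named were the 10 genes, the other loop genes and, from further lists, genes past an unadjusted p of 0.05. The 3 genes closest to each group of clock genes had the smallest root mean square difference of standardised log2 CPM, at 5 CPM or more. Alternatives were DESeq2 1.42.0, RLE and upper-quartile factors, library totals, other filters, the replicate block, a prior count of 0.5, FPKM ratios and leaving out each library. The edgeR fit was tested on simulated data. Values of some single genes of the lists are not reported here.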

Additional observations from a re-analysis of the deposited data

How the results depend on the processing

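The difference between both groups of clock genes stayed between 1.22 and 1.56 on the log2 scale on leaving out single libraries (1.22 without SNI-NP replicate 1) and was 1.38 under other scalings, filters, DESeq2 and a prior count of 0.5. Of the 10 genes, 8 kept their direction in all 14 alternatives. The exceptions were *Per1*, which fell below 0 without sham replicate 1 (-0.18) or SNI-NP replicate 1 (-0.24), and *Per2*, which kept its sign in 5 of 14. The number of genes past an adjusted p of 0.05 was 0 by edgeR and 211 by DESeq2, and from 0 to 222 when each library was left out (222 without SNI-NP replicate 1, 2 without sham replicate 2). At an unadjusted p under 0.05, 708 genes were higher and 857 lower, whereas 470 were higher and 1128 lower with library totals only, 651 and 917 with RLE size factors and 448 and 871 with the replicate block. Without 1 library the higher genes ranged from 307 (without SNI-NP replicate 3) to 920 (without sham replicate 2), with 309 without sham replicate 1 and 375 without sham replicate 3, and the lower genes from 599 to 1388, the last without SNI-NP replicate 1. Other clock genes past that threshold were 3 higher (1 to 3 without 1 library, with 1 without sham replicate 2, SNI-NP replicate 1 or SNI-NP replicate 3) and 2 lower (4 with DESeq2, and 2 to 6 without 1 library, with 6 without SNI-NP replicate 1). The cause was not tested. Deviations of same-numbered rats of both groups had correlations of 0.21, -0.14 and 0.05 over genes. Differently numbered rats were not compared, so these values do not tell whether the numbers pair the rats. The replicate block gave 4 higher and 3 lower other clock genes.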

Other observations

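Genes that follow body temperature are known outputs of daily rhythm, and 3 of 8 such genes differed at an unadjusted p under 0.05 in edgeR, as did 10.8% of all genes tested. The lists of these and of the glucocorticoid-responsive and immediate early genes were chosen with earlier results known, so their counts are descriptive. *Cirbp* and *Rbm3*, which encode cold-inducible RNA-binding proteins, had groups that did not overlap, with SNI-NP rats above. *Cirbp* was at 21.7 ± 2.92 CPM in sham and 28.9 ± 0.95 in SNI-NP rats (mean ± SD of 3 libraries each), with a difference of 0.41 ± 0.13 (log2, ± SE; edgeR adjusted p = 0.436). *Rbm3* differed by 0.80 ± 0.29 (log2, ± SE; edgeR adjusted p = 0.436), with sham replicate 2 at 42.3 CPM, next to the SNI-NP rats at 42.4 to 54.4. *Hsp90aa1*, which encodes an inducible HSP90 chaperone, was at 571.8, 623.6 and 544.7 CPM in sham rats and at 291.8, 194.8 and 224.6 CPM in SNI-NP rats. It differed by -1.29 ± 0.16 (log2, ± SE; adjusted p = 0.117 in edgeR and 2.03e-10 in DESeq2), and it passed the unadjusted threshold in all 6 fits that left out 1 library. *Hspa8*, *Hsph1*, *Dnajb1*, *Hspb1* and *Hspa1b* did not pass the unadjusted threshold. Their log2 fold changes were -0.32, -0.37, -0.04, 0.33 and -0.17, with standard errors of 0.16, 0.18, 0.11, 0.30 and 0.49. Whether the list differed as a group was not tested. *Cirbp* passed in 4 and *Rbm3* in 3 of those 6 fits.

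Of 12 glucocorticoid-responsive genes, 3 were lower in SNI-NP rats at an unadjusted p under 0.05 in edgeR and 0 were higher, against 5.94% lower and 4.91% higher over all genes tested. After adjustment 0 of the 12 passed in edgeR and 1, *Zbtb16*, in DESeq2. *Zbtb16*, a zinc finger transcription factor gene, was at 5.01 ± 1.70 CPM in sham and 1.71 ± 0.28 in SNI-NP rats (mean ± SD of 3 libraries each), and differed by -1.54 ± 0.33 (log2, ± SE; adjusted p = 0.307 in edgeR and 0.0135 in DESeq2). *Tsc22d3*, which encodes GILZ, differed by -0.52 ± 0.16 and *Mt2A*, a metallothionein gene, by -0.61 ± 0.17 (log2, ± SE; edgeR adjusted p = 0.409 and 0.389). *Fkbp5* (-0.28, standard error 0.16) and *Sgk1* (-0.17, standard error 0.26) did not pass. Of 11 tested immediate early genes only *Jun* passed the unadjusted threshold (10.8% of all genes did), and it differed by 0.31 ± 0.10 (log2, ± SE; edgeR adjusted p = 0.436) and passed in 3 of the 6 fits that left out 1 library. *Fos* was at 12.5 ± 3.42 and 9.95 ± 1.41 CPM (mean ± SD of 3 libraries each).

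Over the 6 libraries the genes closest in standardised level to the repressor and output genes were *Cln8*, *Ctc1* and *Nckap5l*, at root mean square differences of 0.099, 0.114 and 0.12 SD, among 11261 genes at 5 CPM or more. *Cln8* was at 35.8, 32.1 and 37.5 CPM in sham rats and at 48.4, 40.5 and 43.9 CPM in SNI-NP rats. Closest to the opposite-phase genes were *Cx3cr1*, *Ube2k* and *Zbtb18*, at 0.116, 0.151 and 0.174 SD. *Cx3cr1*, a microglial chemokine receptor gene, was at 18.9, 17.97 and 17.1 CPM in sham rats and at 15.5, 15.8 and 15.1 CPM in SNI-NP rats. With 6 libraries and this many genes, close matches are to be found for most profiles, and nothing is said of shared control.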
